A study of Homo sapiens with 14 samples.

Results

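The Kruppel-like factors described here are 10 genes, KLF2, KLF3, KLF4, KLF5, KLF6, KLF7, KLF9, KLF10, KLF11 and KLF13. They were taken by symbol from the 28120 genes of the deposited count table, with earlier results of these data known. All 10 were also in the table of RPKM (reads per length of gene and per depth of library), and all 10 were abundant enough to be tested. RNA came from PANC-1, an established human pancreatic cancer cell line, in passages 3 to 5. The cells had been exposed to proanthocyanidins (PA, plant polyphenols) at 20 µg/ml for 3, 12 or 24 h, or to the solvent DMSO for 0, 3, 12 or 24 h. Each of these 7 groups had 2 libraries, 14 in all, and every library came from this single cell line. The labels do not say whether the replicates were separate cultures, so p-values measure the spread between these libraries, which may be technical.

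Kruppel-like factors are DNA-binding proteins with a conserved zinc-finger domain at the C-terminus that recognises GC boxes and CACCC boxes, the same elements that SP proteins bind. Their N-terminal parts differ and set what each factor does. One subgroup (KLF2, KLF4, KLF5, KLF6, KLF7) recruits acetyltransferases and mostly activates, KLF3 recruits the co-repressor CtBP, and a further subgroup (KLF9, KLF10, KLF11, KLF13) recruits the SIN3A repressor complex. In epithelia KLF4 is known for differentiation and cell cycle arrest and KLF5 for proliferation, while KLF10 and KLF11 were found as early genes of transforming growth factor beta signalling in pancreatic and other cells.

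At 3 h no member passed the test, at 12 h 3 members did and at 24 h 8 did. The corresponding shares of all genes tested were 1.72%, 48.5% and 54.6%, so the number of calls also grew across the whole set. For the 12 h comparison the share of members was below that of all genes. At 24 h KLF2 was 7.95 times as high in PA cells as in DMSO cells, KLF4 was 1.96 times and KLF6 1.59 times as high, and KLF10 fell by 0.67 on the log2 scale. In DMSO cells KLF4, KLF5, KLF6 and KLF13 were called lower at 24 h than at 0 h, as were 1.93% of all genes tested.

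KLF2, KLF4 and KLF6, the activators called higher at 24 h under every alternative processing tried, are shown first by their promoters. The GC box, an element the family binds, can be read in them, and none of the 3 windows holds a CACCC box. The windows are those of RefSeq (build GRCh38.p14), with 250 bases before and 50 bases after the annotated start of transcription, read 5′ to 3′ on the gene's strand. Capitals mark each GC box (GGGCGG on either strand, overlapping matches counted) and, in KLF2, a match to the MEF2 core (CTA, then 4 bases of any kind, then TAG). The KLF2 window is chr19:16324576-16324875 on the plus strand, KLF4 is chr9:107489720-107490019 on the minus strand, and KLF6 is chr10:3785160-3785459 on the minus strand.
KLF2: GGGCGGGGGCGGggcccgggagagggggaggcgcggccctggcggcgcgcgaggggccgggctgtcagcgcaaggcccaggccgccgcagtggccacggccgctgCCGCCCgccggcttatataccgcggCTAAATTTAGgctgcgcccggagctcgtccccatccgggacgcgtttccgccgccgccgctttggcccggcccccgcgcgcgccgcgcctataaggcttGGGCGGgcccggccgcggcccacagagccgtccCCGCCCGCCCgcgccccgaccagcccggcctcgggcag
KLF4: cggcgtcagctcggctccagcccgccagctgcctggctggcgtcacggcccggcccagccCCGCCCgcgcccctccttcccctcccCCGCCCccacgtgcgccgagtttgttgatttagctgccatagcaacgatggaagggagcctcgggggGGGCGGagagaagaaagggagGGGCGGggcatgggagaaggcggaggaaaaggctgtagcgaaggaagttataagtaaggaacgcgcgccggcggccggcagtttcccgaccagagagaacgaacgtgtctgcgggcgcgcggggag
KLF6: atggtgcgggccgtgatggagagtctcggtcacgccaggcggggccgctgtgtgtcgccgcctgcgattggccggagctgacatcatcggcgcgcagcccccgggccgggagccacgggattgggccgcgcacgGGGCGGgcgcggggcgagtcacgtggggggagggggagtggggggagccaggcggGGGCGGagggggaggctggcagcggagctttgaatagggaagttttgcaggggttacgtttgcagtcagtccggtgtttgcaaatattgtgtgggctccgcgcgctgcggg
These 3 windows were 80.7%, 69.0% and 70.7% G and C in KLF2, KLF4 and KLF6. They held 6 GC boxes in KLF2, 4 in KLF4 and 2 in KLF6. The MEF2 core in KLF2 begins 120 bases before the start; MEF2 proteins are the factors through which the MAPK7 kinase is known to induce KLF2 in endothelium.

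RefSeq windows were found for 8 of the 10 members, 13 windows in all since some genes have several starts. A GC box occurred in 8 of these 13 windows, against 44.9% of all 34943 windows of the table. The CACCC box (CACCC on either strand) occurred in 7 of 13, against 59.8% of all windows. The MEF2 core occurred in 2 windows, in KLF2 and KLF11, against 2.74% of all windows. The hypoxia response core (ACGTG) was in 7 windows, against 21.4%; where CACGTG occurs, both strands match at the same place. The AP-1 site (TGANTCA) was in 0 windows against 7.72%, the cAMP response element (TGACGTCA) in 1, of KLF11, against 1.84%, and the TATA box letters (TATAAA) in 1, of KLF5, against 11.6%. These are matches of letters and say nothing of occupancy.

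Sequencing depth was 26403984 to 35213154 reads in genes per library, so that 3 reads, the floor used for detection, stood for at most 0.114 CPM (counts scaled to equal library size). Of the 7 epithelial markers all were detected, led by KRT8 and KRT18. Their sum was 18150 to 20940 CPM in PA cells against 5975 to 5998 CPM in DMSO cells at 24 h. At 12 h it was 10480 to 15090 CPM in PA cells against 5009 to 5364 CPM in DMSO cells. CDH1 was low at 0.274 to 1.34 CPM. Of 6 leukocyte markers PTPRC, the defining one, had at most 5 reads in any library and CD3E at most 1, whereas CD14 had 24 to 148 and ITGAM 17 to 65. The summed leukocyte markers were at 6.14 to 7.12 CPM in PA cells at 24 h against 2.7 to 2.81 CPM in DMSO cells at 24 h, and 1.54 to 6.8 CPM in the other groups. Of 5 endothelial markers TEK had at most 1 read and VWF at most 3, whereas KDR had 8 to 38, and their sum was 0.353 to 1.3 CPM over all libraries. Of 5 fibroblast markers COL1A1 had 269 to 943 reads and the others at most 8, and the sum was 20.4 to 20.5 CPM in PA cells at 24 h against 12.7 to 13.5 CPM in DMSO cells at 24 h. RNA of the mitochondrial genome took 10% and 8.23% of reads in PA cells at 24 h, 7.75% and 6.02% in PA cells at 12 h, and 5.12% and 4.72% in PA cells at 3 h, against 4.35% to 6.05% in the DMSO libraries. The slope of log2 CPM on GC content was 0.028 to 0.578 per 10 percentage points of GC in PA libraries and -0.319 to -0.062 in DMSO libraries. The part of the mitochondrial share and of these marker sums in the results was not tested, and for the slope the values after a correction for GC content and length are given beside the results of members whose sign or call it changed, and beside other results it moved. Below, CPM are normalised by TMM (trimmed mean of M-values) and compare one gene between libraries, and RPKM compare genes with each other. In bulk RNA, fewer cells making a transcript and less transcript per cell cannot be told apart.

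KLF6, a broadly expressed factor known as an injury-induced gene and a tumour suppressor, had the highest level per length, with a mean of 24.9 RPKM over the 14 libraries (lowest 17.1, highest 36.7). KLF10 followed at 16.7 RPKM (6.56 to 23.7), and was below KLF6 in 13 of 14 libraries. KLF4 averaged 8.13 RPKM (4.35 to 11.1) and KLF13 7.89 RPKM (5.68 to 10.2). KLF4 exceeded KLF13 in 9 of 14 libraries, so the order of this pair was within their spread. A gap came next, as KLF13 was above KLF5 in 14 of 14 libraries. KLF5 averaged 2.57 RPKM, KLF3 2.12, KLF11 2.01 and KLF7 1.57, and neighbours in this sequence overlapped, with the higher one leading in 9 or 10 of 14 libraries. KLF2, at 1.24 RPKM, ran between 0.35 and 4.07 RPKM, the highest ratio of maximum to minimum among the 10 members at 11.6, and led KLF9 (1.09 RPKM, 0.65 to 1.7) in 7 of 14 libraries.

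**Figure D1:**
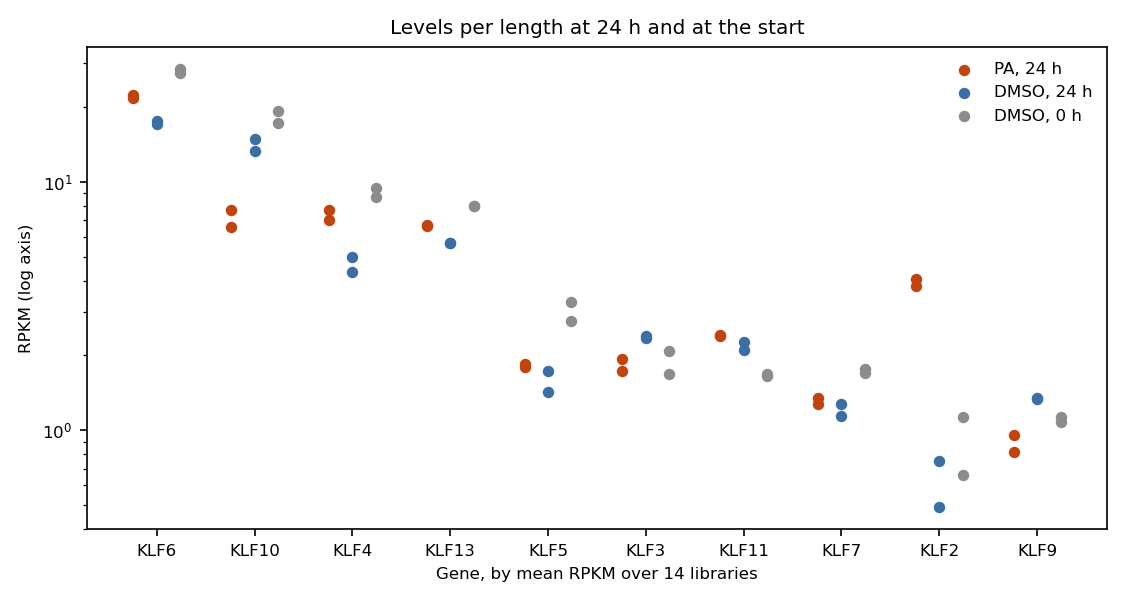
RPKM on a log axis of each Kruppel-like factor in the 2 libraries of PA at 24 h, DMSO at 24 h and DMSO at 0 h, with genes ordered by their mean over the 14 libraries. KLF6 lies highest in each group, and KLF2 at 4.07 and 3.8 RPKM in PA cells stands apart from its DMSO values.

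The make-up of the family changed in PA cells at 24 h. KLF10 held 12.1% and 13.6% of the summed RPKM of the 10 members in the PA libraries at 24 h, against 26.7% and 28.5% in the DMSO libraries at 24 h. KLF2 held 7.48% and 6.75% in PA cells and 0.979% and 1.44% in DMSO cells. The ratio of KLF6 to KLF10 in RPKM was 3.3 and 2.93 in PA cells against 1.31 and 1.15 in DMSO cells. In each of these 3 measures the PA and DMSO libraries did not overlap. Ratios within a library show unequal change and not which member moved.

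The first comparison asks what PA did after 3 h. None of the 10 members passed edgeR's quasi-likelihood test at a Benjamini-Hochberg adjusted p of 0.05 over the 15181 genes tested, of which 1.72% were called. At an unadjusted p under 0.05 there was 1 member, KLF11, and DESeq2 called 0 members. KLF11 had 10.2 and 8.51 CPM in PA cells against 7.21 and 7.08 CPM in DMSO cells, a log2 change of 0.39 ± 0.17 (SE, adjusted p = 0.272). KLF6 had 229 and 210 CPM in PA cells against 199 and 166 CPM in DMSO cells, 0.26 ± 0.12 (adjusted p = 0.297). Both PA libraries lay above both DMSO libraries in these genes, without a call. The other log2 changes at 3 h were -0.19 in KLF2, 0.17 in KLF3, 0.24 in KLF4, 0.04 in KLF5, -0.13 in KLF7, -0.40 in KLF9, 0.21 in KLF10 and 0.21 in KLF13. The GC and length correction turned KLF7 to 0.071 and called no member. The median over the 10 members was 0.19, beside -0.01 over all genes tested.

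At 12 h the test called 1 member higher and 2 lower in PA cells, 3 of 10, against 48.5% of all genes tested (24.4% higher and 24.1% lower). This share of members was thus below that of all genes. KLF13, known for driving the chemokine RANTES in T cells and for recruiting SIN3A, rose: it had 82.2 and 72.2 CPM in PA cells against 54 and 49.8 CPM in DMSO cells. Both PA libraries exceeded both DMSO libraries, and the log2 change was 0.57 ± 0.13 (SE, adjusted p = 0.00253). After the GC and length correction it was 0.24 with an adjusted p of 0.0536.

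KLF10, also named TIEG1 for its early induction by transforming growth factor beta, fell at 12 h. It had 60.1 and 73 CPM in PA cells against 94.4 and 86 CPM in DMSO cells, a log2 change of -0.44 ± 0.15 (SE, adjusted p = 0.0293). The call was lost without PA replicate 1 (-0.30, adjusted p = 0.187), without DMSO replicate 1 (-0.38, adjusted p = 0.158) and without DMSO replicate 2 (-0.51, adjusted p = 0.0601).

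KLF3, a repressor of adipocyte and erythroid genes, fell at 12 h with 12.6 and 12 CPM in PA cells against 19 and 15.4 CPM in DMSO cells. The log2 change was -0.49 ± 0.18 (SE, adjusted p = 0.0383), and it turned to 0.26 after the GC and length correction. Without DMSO replicate 1 it was -0.34 with an adjusted p of 0.249, without PA replicate 1 the adjusted p was 0.0813, and without PA replicate 2 it was 0.0819. KLF3 overlaps the antisense gene KLF3-AS1, and whether the counting used strand is not given in the sources used here.

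The remaining 7 members had log2 changes at 12 h of -0.33 in KLF2, 0.35 in KLF4, -0.20 in KLF5, 0.09 in KLF6, -0.16 in KLF7, -0.50 in KLF9 and 0.40 in KLF11. KLF4 lay just outside the threshold with an adjusted p of 0.0593, and both its PA libraries, at 29 and 26.9 CPM, exceeded the DMSO libraries, at 19.9 and 24 CPM. The change of KLF4 became -0.02 after the GC and length correction. That correction also brought calls for KLF2 (-1.16, adjusted p = 0.0106), KLF6 (0.35, adjusted p = 0.0208), KLF7 (0.37, adjusted p = 0.0356) and KLF11 (0.57, adjusted p = 0.00986). The median of the 10 members was -0.18, beside 0.01 over all genes tested.

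**Figure D2:**
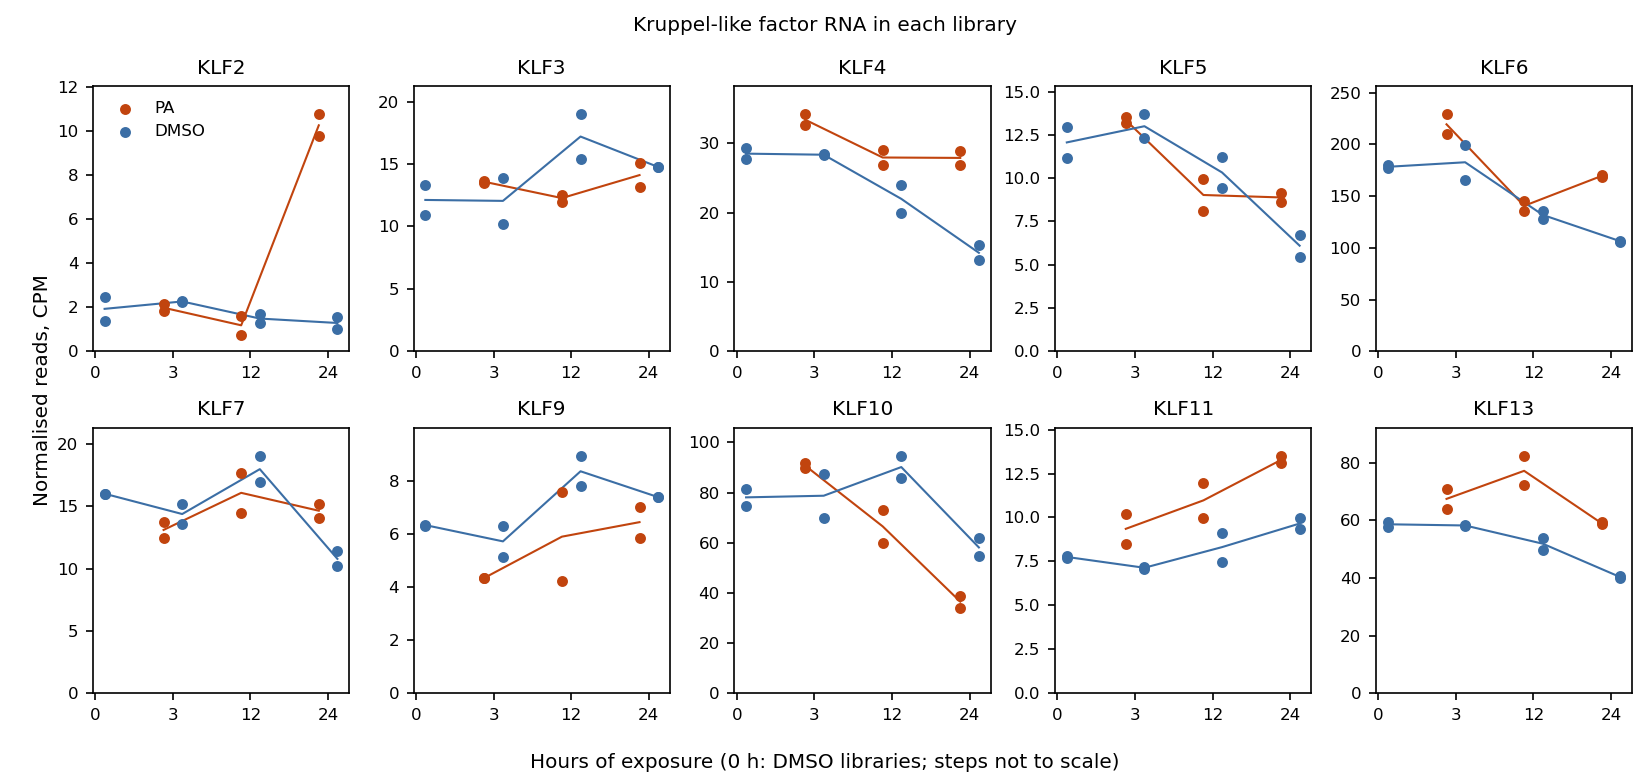
TMM-normalised CPM of the 10 Kruppel-like factors by time in h, one panel a gene, each point a library, with lines joining group means, PA and DMSO in separate colours. KLF2 in PA cells at 24 h, at 10.8 and 9.76 CPM, stands above every other KLF2 value. The DMSO means of KLF4, KLF5, KLF6 and KLF13 are lowest at 24 h, as are those of KLF2, KLF7 and KLF10.

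At 24 h the test called 7 members higher and 1 lower in PA cells, 8 of 10, against 54.6% of all genes tested (27.2% higher and 27.5% lower). The median log2 change of the members was 0.50, beside -0.01 over all genes tested. KLF2, KLF4, KLF5, KLF6, KLF7, KLF11 and KLF13 were higher in PA cells than in DMSO cells at 24 h and KLF10 was lower. KLF2, KLF4, KLF6 and KLF10 were called under each of the 15 alternatives run for this comparison. KLF5, KLF7, KLF11 and KLF13 were not called on the RPKM scale, where the median of all tested genes was -0.24 at 24 h on log2(RPKM + 0.1).

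KLF2, which keeps endothelial cells and naive T cells quiescent, is encoded at chr19:16324817-16327874 (GRCh38, plus strand). It had 10.8 and 9.76 CPM (305 and 280 reads) in PA cells against 1.01 and 1.57 CPM (33 and 49 reads) in DMSO cells at 24 h. Per length this was 4.07 and 3.8 RPKM in PA cells against 0.49 and 0.75 RPKM in DMSO cells. The groups did not overlap, and the highest KLF2 value of any other library was 2.47 CPM. The log2 change was 2.99 ± 0.34 (SE), a 7.95-fold rise (adjusted p = 2.09e-05), which was the rank 75 rise among the 15181 genes tested. After the GC and length correction the log2 change was 2.14 ± 0.29 (SE, adjusted p = 1.98e-05).

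At the earlier times KLF2 was low in both arms. It had 1.83 and 2.13 CPM in PA cells against 2.3 and 2.24 CPM in DMSO cells at 3 h, and 1.62 and 0.75 CPM in PA cells against 1.68 and 1.3 CPM in DMSO cells at 12 h. The PA effect at 24 h exceeded that at 12 h by 3.32 ± 0.51 on the log2 scale (SE, adjusted p = 0.0137 in edgeR's test of the difference). KLF2 was the single member called in that test, against 0.422% of all genes. The call was lost without replicate 1 of DMSO at 12 h (3.12, adjusted p = 0.083), without replicate 2 of that group (3.48, adjusted p = 0.085) and without replicate 1 of DMSO at 24 h (3.03, adjusted p = 0.116).

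KLF4, at chr9:107484852-107490482 on the minus strand, is a driver of epithelial differentiation and one of the reprogramming factors. It had 26.9 and 28.9 CPM in PA cells against 13.1 and 15.3 CPM in DMSO cells at 24 h. The groups did not overlap, and the log2 change was 0.97 ± 0.14 (SE, adjusted p = 0.000132). The level in PA cells at 24 h lay beside the 29.3 and 27.7 CPM of DMSO cells at 0 h. In PA cells KLF4 had 34.2 and 32.7 CPM at 3 h and 29 and 26.9 CPM at 12 h. After the GC and length correction the change at 24 h was 0.62 ± 0.12 (SE).

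KLF6, at chr10:3775996-3785281 on the minus strand, had 169 and 171 CPM in PA cells against 107 and 106 CPM in DMSO cells at 24 h, and 180 and 177 CPM in DMSO cells at 0 h. Replicates were close, the groups were apart, and the log2 change was 0.67 ± 0.12 (SE, adjusted p = 0.000585). Per length, PA cells at 24 h averaged 7.34 RPKM in KLF4 and 22 RPKM in KLF6, against 9.07 and 27.9 RPKM in DMSO cells at 0 h, so on that scale both genes were below the level at 0 h. The KLF6 change at 24 h was 1.005 ± 0.11 (SE) after the GC and length correction and 0.35 ± 0.11 (SE) on log2(RPKM + 0.1). In PA cells KLF6 was highest at 3 h, with 229 and 210 CPM, and had 136 and 145 CPM at 12 h.

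KLF5, which favours proliferation in intestinal crypts and is amplified in some carcinomas, had 9.17 and 8.61 CPM in PA cells against 5.47 and 6.74 CPM in DMSO cells at 24 h. The log2 change was 0.54 ± 0.18 (SE, adjusted p = 0.0204). Without PA replicate 1 the adjusted p was 0.0797, and without DMSO replicate 1 the change was 0.40 (adjusted p = 0.174). In DMSO cells at 0 h KLF5 had 13 and 11.2 CPM, above the PA libraries at 24 h. On log2(RPKM + 0.1) the change was 0.20 (adjusted p = 0.376).

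KLF7, a regulator of neuronal outgrowth and adipocyte differentiation, had 15.2 and 14.1 CPM in PA cells against 11.4 and 10.2 CPM in DMSO cells at 24 h. The log2 change was 0.44 ± 0.16 (SE, adjusted p = 0.029), with groups that did not overlap. The call was lost on leaving out any 1 of these 4 libraries, with adjusted p between 0.0571 and 0.178. In DMSO cells at 0 h KLF7 had 16.01 and 16.03 CPM, above the PA libraries at 24 h. KLF7 gave 0.11 on log2(RPKM + 0.1) (adjusted p = 0.631) and 1.01 after the GC and length correction. Its locus holds KLF7-IT1, MIR2355 and MIR7845.

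The SIN3A-recruiting members went different ways at 24 h. KLF10, at chr8:102648779-102655902 on the minus strand, had 34.2 and 39 CPM in PA cells against 54.6 and 61.8 CPM in DMSO cells. Both PA libraries were below both DMSO libraries and below every other library of the study, and the log2 change was -0.67 ± 0.15 (SE, adjusted p = 0.00251). It was -0.49 ± 0.12 (SE) after the GC and length correction and -0.98 ± 0.17 (SE) on log2(RPKM + 0.1).

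At 3 h KLF10 had 89.6 and 92 CPM in PA cells against 70 and 87.5 CPM in DMSO cells, the opposite side. That difference was not called (0.21 ± 0.15, SE, adjusted p = 0.489). Between 3 and 12 h the PA effect on KLF10 differed by -0.64 ± 0.22 (SE, adjusted p = 0.108), and for KLF3 by -0.66 ± 0.25 (SE, adjusted p = 0.15). No member was called in this test of 12 h against 3 h, against 2.79% of all genes; 2 members had an unadjusted p under 0.05, and DESeq2 called 1, KLF10 (-0.68, adjusted p = 0.0491). With the GC and length correction KLF10 gave -0.59 (adjusted p = 0.0461) and KLF3 -0.22 (adjusted p = 0.633).

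KLF11, or TIEG2, the closest relative of KLF10 and a gene studied in exocrine pancreas and beta cells, had 13.5 and 13.1 CPM in PA cells against 9.96 and 9.36 CPM in DMSO cells at 24 h. The log2 change was 0.46 ± 0.17 (SE, adjusted p = 0.0322). The call was lost on leaving out any 1 of these 4 libraries, with adjusted p between 0.0799 and 0.153, and the change was 0.13 on log2(RPKM + 0.1) and 0.70 after the GC and length correction. The ratio of KLF11 to KLF10 in RPKM was 0.367 and 0.312 in PA cells against 0.17 and 0.142 in DMSO cells, without overlap. KLF11 overlaps an antisense gene.

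KLF13 had 59.3 and 58.6 CPM in PA cells against 39.9 and 40.8 CPM in DMSO cells at 24 h, and 57.7 and 59.6 CPM in DMSO cells at 0 h. Per length, PA cells at 24 h were below DMSO cells at 0 h, with 6.62 and 6.7 RPKM against 7.95 and 8.0 RPKM. The replicates of each group lay close together, and the log2 change was 0.55 ± 0.13 (SE, adjusted p = 0.00253). It was 0.22 ± 0.09 (SE, adjusted p = 0.0579) after the GC and length correction and 0.23 on log2(RPKM + 0.1) (adjusted p = 0.0987). A processed pseudogene, UBE2CP4, lies within KLF13 on the same strand.

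KLF9, a gene induced by glucocorticoid and thyroid hormone, and KLF3 did not pass at 24 h. KLF9 had 7.02 and 5.86 CPM in PA cells against 7.38 and 7.38 CPM in DMSO cells (log2 change -0.20 ± 0.23, SE, adjusted p = 0.499), and the GC and length correction turned this to 0.12 (adjusted p = 0.636). KLF3 had 15.1 and 13.2 CPM in PA cells against 14.8 and 14.8 CPM in DMSO cells (-0.07 ± 0.18, SE, adjusted p = 0.779), and after the GC and length correction it was 0.66 (adjusted p = 0.00441).

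**Figure D3:**
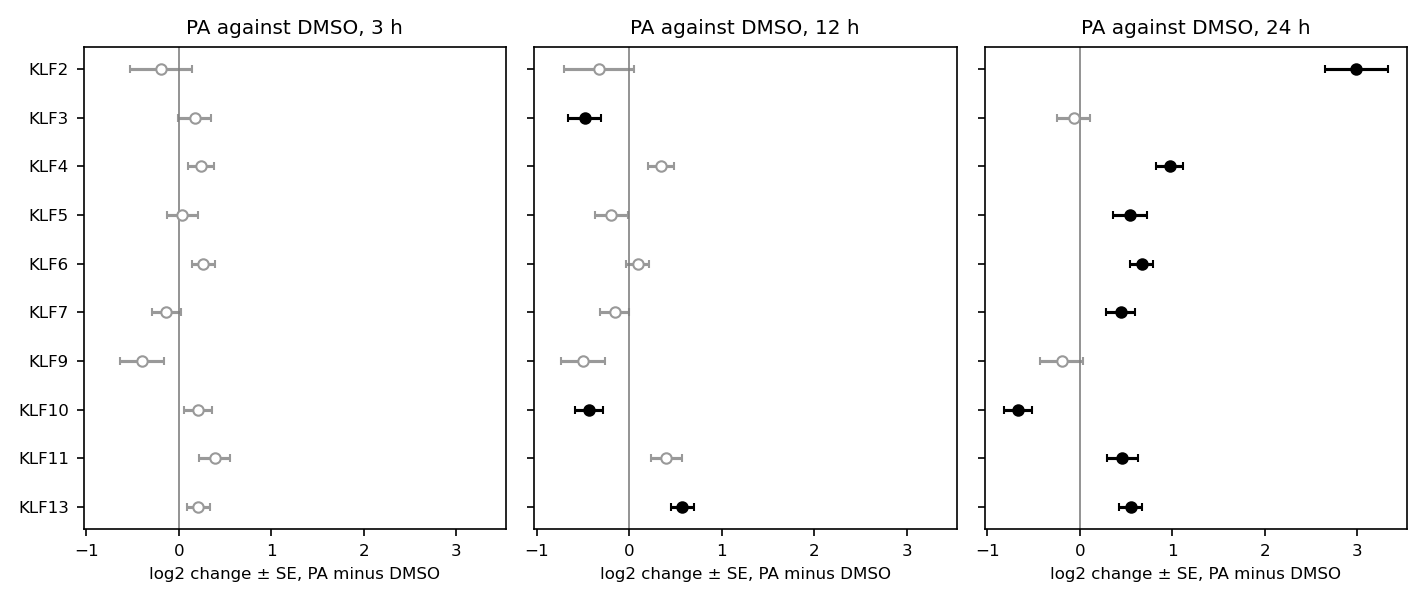
Log2 change, PA minus DMSO, of each member at 3, 12 and 24 h with its SE from edgeR, filled where the adjusted p was under 0.05. No point is filled at 3 h, 3 are at 12 h and 8 at 24 h, where KLF2 stands at 2.99 and KLF10 at -0.67.

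Between 12 and 24 h the PA effect moved by 0.63 ± 0.20 in KLF4 (SE, adjusted p = 0.295), 0.74 ± 0.25 in KLF5 (adjusted p = 0.331), 0.58 ± 0.18 in KLF6 (adjusted p = 0.241), 0.60 ± 0.22 in KLF7 (adjusted p = 0.364) and -0.23 ± 0.22 in KLF10 (adjusted p = 0.812). None of these differences passed the test, although 5 members, KLF2 included, had an unadjusted p under 0.05. KLF6 was called after the GC and length correction (0.66, adjusted p = 0.0398). Of the 10 members, the effect at 24 h differed from that at 12 h by this test in KLF2.

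The DMSO series asks how the family moved without PA. At 3 h against 0 h no member was called and 0 of 15181 genes were (0.0%) by edgeR, and DESeq2 also called 0 genes. At an unadjusted p under 0.05 in edgeR there were 215 genes and 0 members. At 12 h against 0 h 0 members were called, against 1.46% of genes. KLF3 had a log2 change of 0.51 ± 0.18 (SE, adjusted p = 0.17), KLF4 of -0.37 ± 0.14 (adjusted p = 0.199) and KLF6 of -0.44 ± 0.12 (adjusted p = 0.0954), and KLF6 was called lower by DESeq2 and after the GC and length correction (-0.53, adjusted p = 0.0128).

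At 24 h against 0 h in DMSO 0 members were higher and 4 lower, against 2.46% of all genes in either direction and 1.93% lower. KLF4 had 13.1 and 15.3 CPM at 24 h against 29.3 and 27.7 CPM at 0 h, a log2 change of -1.004 ± 0.14 (SE, adjusted p = 0.00248). KLF5 fell by 0.98 ± 0.18 (SE, adjusted p = 0.0111), KLF6 fell by 0.74 ± 0.12 (adjusted p = 0.00633) and KLF13 fell by 0.54 ± 0.13 (adjusted p = 0.0395). In all 4 genes both libraries at 24 h lay below both at 0 h. The count of 4 became 0 when replicate 1 of DMSO at 24 h was left out and 2 for its replicate 2, and it became 1 and 2 for replicates 1 and 2 of DMSO at 0 h, while the log2 changes of KLF4 and KLF5 stayed at or below -0.83. The 6 members not called had -0.60 in KLF2, 0.29 in KLF3, -0.57 in KLF7 (adjusted p = 0.0753), 0.22 in KLF9, -0.43 in KLF10 and 0.32 in KLF11. The GC and length correction brought calls for KLF7 (-0.58, adjusted p = 0.0139) and KLF10 (-0.41, adjusted p = 0.0443). This comparison and that of PA with DMSO at 24 h share the DMSO libraries at 24 h, so high or low values there move both. Side by side, KLF4 gave 0.97 for PA and -1.004 for time, KLF5 0.54 and -0.98, KLF6 0.67 and -0.74, and KLF13 0.55 and -0.54.

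The other members of the KLF and SP family are 17 listed genes, of which 9 were tested; KLF1, KLF8, KLF14, KLF15, SP7, SP8 and SP9 had at most 12 reads in any library. Of the 9, PA changed 0 at 3 h, 1 higher and 2 lower at 12 h, and 1 higher and 3 lower at 24 h. Among all genes tested 48.5% were called at 12 h and 54.6% at 24 h. The list's median log2 change at 24 h was 0.00, beside -0.01 over all genes. SP4 had 1.13 and 1.99 CPM in PA cells against 8.14 and 7.28 CPM in DMSO cells at 24 h, a fall by 2.30 ± 0.33 on the log2 scale (SE, adjusted p = 0.000105). SP3, a competitor of SP1 for GC boxes, fell by 1.41 ± 0.32 (adjusted p = 0.00228), with 27.7 and 20.3 CPM in PA cells against 62.6 and 64.8 CPM in DMSO cells. SP4 and SP3 were called lower under each of the 15 alternatives, but after the GC and length correction the falls were smaller, at -1.31 in SP4 and -0.48 in SP3. KLF16 rose by 0.87 ± 0.24 (adjusted p = 0.0067), which became 0.04 after that correction; it was not called on the RPKM scale, nor without PA replicate 2 (adjusted p = 0.0797) or DMSO replicate 1 (adjusted p = 0.051). KLF12 fell by 0.67 ± 0.22 (adjusted p = 0.0188), which turned to 0.34 after that correction, and the call was lost without PA replicate 1 (adjusted p = 0.0997) and without DMSO replicate 1 (adjusted p = 0.169).

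Genes known to induce KLF2 and KLF4, or to lie in that pathway, were 9, all tested. PA changed 0 at 3 h, 5 higher and 1 lower at 12 h and 7 higher and 1 lower at 24 h. Over all genes 48.5% were called at 12 h and 54.6% at 24 h, 27.2% higher. The list's median was 0.70 at 24 h beside -0.01 over all genes. MAPK7 (ERK5), the kinase at the end of the pathway, had 28.6 and 29.7 CPM in PA cells against 11 and 14.4 CPM in DMSO cells at 24 h, a rise of 1.19 ± 0.22 (SE, adjusted p = 0.000543). MEF2D, one of its target factors, had 52.6 and 58.2 CPM in PA cells against 28.4 and 31.4 CPM in DMSO cells, a rise of 0.89 ± 0.16 (adjusted p = 0.000513). Both were called higher under each of the 15 alternatives, and in each the groups did not overlap. After the GC and length correction the rises were smaller, at 0.56 in MAPK7 and 0.60 in MEF2D. MEF2A, in the same list, went the other way at 24 h, with 24 and 20.1 CPM in PA cells against 28 and 30.2 CPM in DMSO cells. MEF2C had 5.43 and 5.47 CPM in PA cells against 4.21 and 2.62 CPM in DMSO cells. At 12 h MAPK7 had 39.4 and 24.1 CPM in PA cells against 13.5 and 14.4 CPM in DMSO cells. This was a rise of 1.19 ± 0.22 (adjusted p = 0.000858), and of 0.53 after that correction. KLF2 was not called at 12 h as reported, and after that correction it was called lower (-1.16, adjusted p = 0.0106). SRF rose by 0.70 ± 0.17 and HIF1A, the hypoxia factor, fell by 1.32 ± 0.28 at 24 h; after the GC and length correction these were 0.15 and -0.28 and no longer called.

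The genes of transforming growth factor beta signalling around KLF10 and KLF11 were 10, all tested, with 0 called at 3 h, 1 higher and 4 lower at 12 h and 1 higher and 3 lower at 24 h. Of all genes tested 48.5% were called at 12 h and 54.6% at 24 h. The list's median was -0.30 at 24 h, beside -0.01 over all genes. The ligand TGFB1 had 83.8 and 86.4 CPM in PA cells against 42.9 and 51.9 CPM in DMSO cells at 24 h (0.84 ± 0.19, SE, adjusted p = 0.00227). The ligand TGFB2 went the other way, with 25.2 and 21.1 CPM in PA cells against 47.5 and 53.9 CPM in DMSO cells (-1.13 ± 0.20, adjusted p = 0.000403). SKIL, an inhibitor of SMAD proteins, fell by 1.26 ± 0.41 (adjusted p = 0.0192) and SMAD4, the shared SMAD, by 0.49 ± 0.19 (adjusted p = 0.0412). SKIL was -1.93 without PA replicate 1, and its call was lost without PA replicate 2 (-0.81, adjusted p = 0.179), DMSO replicate 1 (adjusted p = 0.0663) or DMSO replicate 2 (adjusted p = 0.0584). Each of the 4 fits that left out a library lost the SMAD4 call (adjusted p = 0.051 to 0.224). After the GC and length correction the changes were 0.09 in TGFB1, -0.20 in TGFB2, -0.02 in SKIL and 0.32 in SMAD4, none of them called.

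Co-repressors and co-activators that Kruppel-like factors recruit were 13, all tested. PA changed 0 at 3 h, 5 higher and 5 lower at 12 h and 4 higher and 6 lower at 24 h. By comparison 48.5% of all genes tested were called at 12 h and 54.6% at 24 h. The list's median at 24 h was -0.08, beside -0.01 over all genes. The acetyltransferases CREBBP and EP300 fell by 0.76 ± 0.14 and 0.62 ± 0.14 at 24 h (SE, adjusted p = 0.000474 and 0.00235). EP300 had 31.7 and 34.7 CPM in PA cells against 50.5 and 51.4 CPM in DMSO cells. NCOR1, a scaffold of a histone deacetylase complex, had 124 and 125 CPM in PA cells against 232 and 265 CPM in DMSO cells, a fall by 0.99 ± 0.12 (adjusted p = 4.24e-05). HDAC2 fell by 0.83 ± 0.18 (adjusted p = 0.00183), which turned to 0.21 after the GC and length correction, while NCOR1, CREBBP and EP300 were called lower under each of the 15 alternatives. The corrected values were -0.53 in NCOR1, -0.94 in CREBBP and -0.58 in EP300.

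Ubiquitin ligases and deubiquitinases reported to act on these proteins were 11 listed and 10 tested. PA changed 0 at 3 h, 3 higher and 5 lower at 12 h and 3 higher and 3 lower at 24 h. The share of all genes called was 48.5% at 12 h and 54.6% at 24 h. The list's median at 24 h was -0.01, as over all genes. FBXW7, which targets KLF5 and KLF2 for degradation, had 7.3 and 5.26 CPM in PA cells against 11.5 and 10.6 CPM in DMSO cells at 24 h (-0.81 ± 0.18, SE, adjusted p = 0.00181). USP10 fell by 0.73 ± 0.14 (adjusted p = 0.000611), and both were called lower under each of the 15 alternatives. After the GC and length correction FBXW7 was at -0.46 and USP10 at -0.68. SMURF1 rose by 0.64 ± 0.18 (adjusted p = 0.00754; 0.31 and not called on log2(RPKM + 0.1), and not called without DMSO replicate 1, adjusted p = 0.0679), as did STUB1 by 0.73 ± 0.13 (adjusted p = 0.00047), which turned to -0.15 after the GC and length correction.

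Genes reported as targets of Kruppel-like factors were 16 listed and 14 tested, with 1 higher and 0 lower at 3 h, 5 higher and 4 lower at 12 h and 6 higher and 5 lower at 24 h. The shares called over all genes were 1.72% at 3 h, 48.5% at 12 h and 54.6% at 24 h, and the list's median was 0.33 at 24 h beside -0.01. CDKN1A, the cell cycle inhibitor p21 that KLF4 and KLF6 are known to induce, was the gene called at 3 h (0.79 ± 0.17, SE, adjusted p = 0.0344). That call was lost on leaving out any 1 of the 4 libraries at 3 h, with adjusted p between 0.0802 and 0.417, and with the replicate block (adjusted p = 0.0551). At 24 h it had 89.7 and 116 CPM in PA cells against 17.9 and 21 CPM in DMSO cells, a rise of 2.40 ± 0.18 (adjusted p = 1.67e-06). ATF3, a stress-induced factor, had 50.6 and 63.2 CPM in PA cells against 3.2 and 3.99 CPM in DMSO cells, a rise of 3.98 ± 0.22 (adjusted p = 5.54e-07). The keratin KRT19 rose by 2.20 ± 0.19 (adjusted p = 3.05e-06) and CCNB1, the cyclin of mitosis, fell by 1.32 ± 0.11 (adjusted p = 3.24e-06). At 24 h all 4 kept their call under each of the 15 alternatives, and after the GC and length correction KRT19 was at 1.41 and the others at 1.81 in CDKN1A, 3.81 in ATF3 and -0.95 in CCNB1. Whether any Kruppel-like factor acted on these genes was not measured.

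Over the 14 libraries the genes nearest in pattern to KLF2, by the root-mean-square difference of centred log2 CPM among 9609 candidates, were SESN2 (0.47), DDIT3 (0.52) and CHAC1 (0.54), beside a spread of KLF2 itself of 1.01. DDIT3 averaged 35.1, 47.5 and 215 CPM in PA cells at 3, 12 and 24 h, and between 35 and 38.2 CPM in the DMSO groups. SESN2 averaged 42.9 CPM in PA cells against 7.01 CPM in DMSO cells at 24 h, and CHAC1 37.9 CPM in PA cells against 6.76 CPM in DMSO cells. Nearest to KLF10 were CNOT1 (0.09), USP7 (0.10) and EP300 (0.11), beside a spread of KLF10 of 0.44. USP7 averaged 175 CPM in PA cells against 266 CPM in DMSO cells at 24 h. The log2 change at 24 h was -0.617 in CNOT1 and -0.603 in USP7. Over the 15 alternatives it ran from -0.918 to -0.164 in CNOT1 and from -0.92 to -0.227 in USP7. Neither gene kept its call under every alternative.

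**Figure D4:**
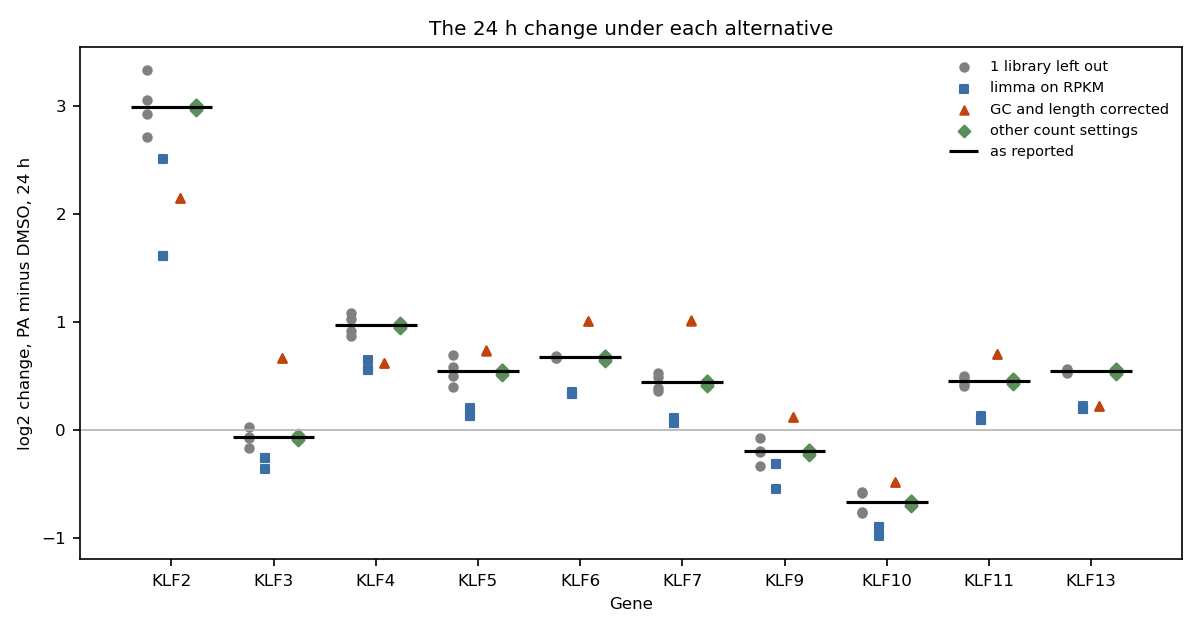
Log2 change at 24 h, PA minus DMSO, of each member as reported (black line) and under the 15 alternatives (symbols by kind of alternative). KLF2 (1.61 to 3.33), KLF4 (0.56 to 1.08) and KLF6 (0.34 to 1.01) lie above 0 throughout, as do KLF5, KLF7, KLF11 and KLF13. KLF10 (-0.98 to -0.49) lies below 0, and KLF3 and KLF9 lie on both sides of 0.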

How the data were processed

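Paired reads of 14 PANC-1 libraries came from a NextSeq 500 sequencer, per the labels. The deposited counts are raw whole reads per gene. The deposited RPKM values were scaled to gene length and library total by the authors. The submitters' processing notes name TopHat2, edgeR and GRCh38; how reads were counted, against which annotation and strand, is not given in the sources used. Tests on the counts ran under R 4.3.3 in edgeR 4.0.16 (settings: TMM, filterByExpr, quasi-likelihood, all 14 libraries, 7 residual degrees of freedom, two-sided, Benjamini-Hochberg over 15181 genes, threshold 0.05). The SE is the log2 change divided by the square root of F. Alternatives used DESeq2 1.42.0, limma 3.58.1 on log2(RPKM + 1) and log2(RPKM + 0.1), other filters and size factors, a replicate block, a spline correction for GC content and length (GENCODE annotation, 99.3% of genes), the libraries of each comparison alone, and each library left out. The fit was checked on simulated counts. The members, the 6 lists and the tests were chosen with earlier results of these data known. All members were named, with up to 4 genes of smallest p per list and comparison and the 3 nearest patterns of the largest called rise and fall. MEF2A and MEF2C were named in addition, beside MEF2D.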

Additional observations from a re-analysis of the deposited data

Results flagged for a closer look

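The PA effect on KLF2 differed between times: it was 3.32 log2 units larger at 24 h than at 12 h (edgeR, adjusted p = 0.0137), higher in both PA libraries at 24 h. Between 24 h and 3 h the effect on KLF2 differed by 3.18 log2 units, with both PA libraries above both DMSO libraries at 24 h and below both at 3 h, and this difference was not tested. KLF10 showed the opposite order, with both PA libraries below both DMSO libraries at 24 h and above both at 3 h. Its effects at these times differed by -0.87 log2 units, which was not tested. Neither KLF2 nor KLF10 was called at 3 h.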

How the results depend on the processing

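The count of called members at 12 h, 3 as reported, was 1 with no filter on low counts and 0 with only the libraries of the comparison. It was 5 with the GC and length correction, both alone and combined with the replicate block. The count at 12 h also moved when single libraries were left out. At 24 h, 8 as reported, it was 5 with no filter, 4, 4 and 4 in the 3 RPKM analyses, and 5 to 6 without single libraries. For the PA effect at 12 h less that at 3 h, 0 as reported, it was 1 with the GC and length correction, 1 with block and correction, 1 with DESeq2, and 0 to 1 without single libraries. For 24 h less 12 h, 1 as reported, it was 2 with the correction, 0 with only those libraries, and 0 to 1 without single libraries. In DMSO at 12 h against 0 h, 0 as reported, it was 1 with the correction, 1 with block and correction, 1 with DESeq2 and 3 with only those libraries. At 24 h against 0 h, 4 as reported, it was 0 to 2 without single libraries. The causes were not tested.

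Same-numbered libraries deviated together at a correlation over 0.1 in 2 of 21 pairs of groups (-0.22 to 0.24). Low correlations cannot show whether these libraries were handled as pairs, because differences such as the GC slope also enter the deviations. With the replicate block the counts were 0 at 3 h, 3 at 12 h, 8 at 24 h and 3 in DMSO at 24 h against 0 h.

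Signs turned as follows. Leaving out single libraries gave -0.031 to 0.43 in KLF3 and -0.018 to 0.119 in KLF5 at 3 h, -0.977 to 0.127 in KLF2 at 12 h and -0.163 to 0.026 in KLF3 at 24 h; the sign turned without DMSO 3 h replicate 1, DMSO 3 h replicate 2, PA 12 h replicate 2 and PA 24 h replicate 2, in this order. At 3 h KLF7 was 0.071 with the correction and 0.072 with block and correction. At 12 h KLF6 was -0.039, -0.041 and -0.039 in the RPKM analyses. With the correction, and with block and correction, the 12 h values were 0.26 and 0.25 in KLF3, -0.02 and -0.019 in KLF4, and 0.37 and 0.37 in KLF7. At 24 h they were 0.66 and 0.66 in KLF3, 0.12 and 0.12 in KLF9, 0.34 and 0.36 in KLF12, 0.21 and 0.21 in HDAC2, -0.15 and -0.15 in STUB1, and 0.32 and 0.32 in SMAD4.

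Of 797 recomputed member values 692 kept sign and call, 57 lost the call, 29 gained one and 19 turned. The table of values recomputed was limited, after they were seen, to those printed; of 483 others 61 turned. Of 464 values of 29 other genes 416 kept both. Calls over all genes were 28 to 1183 at 3 h (261 as reported), 3671 to 8673 at 12 h (7363) and 6098 to 8495 at 24 h (8296). On the RPKM scale 31.8% to 32.7% of calls at 24 h were higher, against 49.7%. With 2 libraries a group and 26403984 to 35213154 reads a library, low genes such as KLF2 before 24 h had few reads.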
